A study of Oryctolagus cuniculus with 30 samples.

Results

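Covered and uncovered rabbit ear wounds were compared 5 days after the epidermis had closed. The comparison takes 11 of the 30 arrays of the series, 5 from covered and 6 from uncovered wounds, and all 23369 non-control probes of the array. Samples were assigned by the group named in their labels and by nothing measured. All animals were female New Zealand White rabbits. A double-bladed scalpel with 1 mm between its blades cut superficial grids into the skin of both ears, and 1 layer of Tegaderm, a transparent film dressing, lay over the wounds of both ears until they had re-epithelialized 2 days later (day 0). The film was then taken off the right ear (uncovered group), while the left ear received 4 more layers (covered group), and tissue was taken on day 5. Both groups had therefore been wounded and had been under film before closure. All covered samples came from left ears and all uncovered samples from right ears, so film and ear side cannot be told apart. The other groups are unwounded skin (2 arrays), the wound at day 0 (6), and uncovered (6) and covered (5) wounds at day 3. They are given below as levels, and covering was also tested at day 3 and between the days. All 30 arrays entered the main fit. The SE and p of each day 5 change there therefore rest on the spread within all 6 groups. The labels do not say which animal each array came from, nor whether ears of 1 animal gave both arms, so p-values measure the spread between these samples. A 30 min soak in ammonium thiocyanate (0.5 M) freed the epidermis from the dermis, and each array received Cy3-labelled RNA of 1 sample, made from 400 ng. The array files call every probe unknown and name contigs, which are assemblies of sequenced transcript ends, in place of genes. Probes are therefore given by name and sequence, and the labelled tissue could not be checked against marker genes. The genomic position of the probes was not analysed here.

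An occlusive film slows the loss of water through skin. Newly closed wound epidermis has an immature barrier and loses water faster than intact skin, and keratinocytes, its main cells, change the transcription of inflammatory and differentiation genes when the stratum corneum above them dries. The series asks how the hydration of this new epidermis bears on inflammatory gene expression, and the day 5 arms show the later of its 2 time points. In RNA from a tissue, fewer cells of a type and less RNA per cell cannot be told apart.

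Each probe is 60 bases long. Of the 16139 contigs, 7230 carried 2 probes and 8909 carried 1, and the 2 probes of a contig are separate stretches of what the design took as a single transcript. The first 5 sequences below belong to contigs or probes with large falls under cover, and the next 5 to rises. The 2 after these fell under cover at day 5 and did not pass the threshold at day 3, and the last 4 are both probes of 2 contigs whose probes disagreed. Capitals mark runs of 4 or more letters that are each G or C, since base composition returns among the results.
UF_Ocu_AF_109724: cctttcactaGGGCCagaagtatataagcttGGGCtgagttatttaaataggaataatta
UF_Ocu_AF_101829: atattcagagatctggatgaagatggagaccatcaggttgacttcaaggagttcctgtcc
UF_Ocu_AF_110525: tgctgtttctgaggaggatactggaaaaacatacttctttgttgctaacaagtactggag
UF_Ocu_AF_101793: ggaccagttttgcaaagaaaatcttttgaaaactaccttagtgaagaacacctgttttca
UF_Ocu_AF_112062: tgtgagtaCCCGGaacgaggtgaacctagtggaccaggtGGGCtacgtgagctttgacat
UF_Ocu_AF_101997: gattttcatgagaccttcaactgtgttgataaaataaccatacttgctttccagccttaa
UF_Ocu_AF_110026: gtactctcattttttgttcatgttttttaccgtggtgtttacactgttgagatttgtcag
UF_Ocu_AF_111928: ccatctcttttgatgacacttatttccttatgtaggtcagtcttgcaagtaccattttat
UF_Ocu_AF_104998: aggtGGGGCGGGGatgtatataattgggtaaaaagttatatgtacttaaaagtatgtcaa
UF_Ocu_AF_110715: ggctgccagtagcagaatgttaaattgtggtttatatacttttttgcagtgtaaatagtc
UF_Ocu_AF_103039: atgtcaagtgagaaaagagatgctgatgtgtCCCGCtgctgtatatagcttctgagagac
UF_Ocu_AF_113170: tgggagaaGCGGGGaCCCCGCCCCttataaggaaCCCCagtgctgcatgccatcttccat
UF_Ocu_AF_100414: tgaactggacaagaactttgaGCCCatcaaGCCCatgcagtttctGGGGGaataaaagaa
UF_Ocu_AF_100415: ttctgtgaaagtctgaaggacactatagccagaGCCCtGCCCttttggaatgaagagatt
UF_Ocu_AF_108754: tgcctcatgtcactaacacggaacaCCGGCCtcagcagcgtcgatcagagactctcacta
UF_Ocu_AF_108755: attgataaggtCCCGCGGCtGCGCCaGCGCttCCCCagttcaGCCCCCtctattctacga

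Covered replicate 1 stood apart from the other 10 arrays. It lay on slide 6 with unwounded replicate 2, and this slide alone was read on the first of the 3 scan days. It had 311 saturated spots, against 0 to 4 on the other day 5 arrays, and 595 outlier spots, against 9 to 267. Across the tested probes it correlated with the other covered arrays with r from 0.915 to 0.946, while those 4 arrays correlated among themselves with r from 0.970 to 0.985 and the 6 uncovered arrays with r from 0.970 to 0.989. The SD of its deviation from the other covered arrays was 1.20 on the log2 scale, against 0.44 to 0.61 for each other covered array. Across 12084 probes this deviation correlated with the difference between the 2 unwounded arrays (replicate 2, on the same slide, minus replicate 1) with r = 0.72. What makes the slide differ was not tested. All counts are given with and without this array.

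Wounds kept under film differed from uncovered wounds at day 5 in both directions, with deeper falls than rises. Levels are log2 signals relative to the 75th percentile of the array, and a probe was called where the limma adjusted p was under 0.05. Of 12341 tested probes 1696 were called (13.7%), 884 higher (7.16%) and 812 lower (6.58%) under cover. Without covered replicate 1 the count was 914 (7.41%), 428 higher (3.47%) and 486 lower (3.94%). Of the 1696 calls 51.2% were kept without that array, 401 of the higher and 467 of the lower ones, and 27 higher and 19 lower calls appeared only without it. No probe changed direction between the calls of the 2 fits. The loss on leaving out this array depended on the model: a limma fit of the day 5 arrays alone went from 1878 to 2146 calls, array weights from 2631 to 2357 and slide as a fixed block from 2055 to 1455. The higher calls had a median log2 change of 0.65 (quartiles 0.53 and 0.80) and reached at most 1.58, or 3.0-fold. The lower calls had a median of -1.24 (quartiles -1.85 and -0.87) and reached -9.40. Falls of at least 4-fold numbered 173 and of at least 16-fold 26, and no rise reached 4-fold. Without replicate 1 the lower calls held 94 falls of at least 4-fold and again 26 of at least 16-fold. Many of these sizes rest on covered signals near background: 64 of the 173 and 9 of the 26 were well above background on all covered arrays. With dim arrays held at their lowest signal well above background, 115 and 23 still reached 4-fold and 16-fold. The median change of all tested probes was -0.01, and 0.03 without replicate 1.

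The split between rises and falls depended on the processing. Higher probes were 884 of 1696 under the main scaling and 1593 of 2377 with quantile normalization, which moved the median change of all probes to 0.11. Arrays of a slide resembled each other (correlation 0.346 within slides), and slide as a random block gave 1360 higher and 1125 lower calls, while slide as a fixed block gave 910 higher and 1145 lower. Falls of at least 2-fold outnumbered rises of at least 2-fold, 527 (4.27%) against 79 (0.64%), and 334 against 47 without replicate 1. They did so under quantile normalization too, by 465 against 370. The arrays of the groups did not overlap for 931 probes that were higher (7.54%) and 711 that were lower (5.76%) under cover, and for 1164 (9.43%) and 782 (6.34%) without replicate 1. Among called probes the groups did not overlap for 570 of 884 higher and 545 of 812 lower ones. The share of all probes well above background was 44.7% ± 3.4 (SD, n = 5) in covered and 42.7% ± 2.5 (SD, n = 6) in uncovered wounds, and the difference of 1.97 percentage points was within the spread between arrays (exact permutation test, two-sided, p = 0.286).

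**Figure D1:**
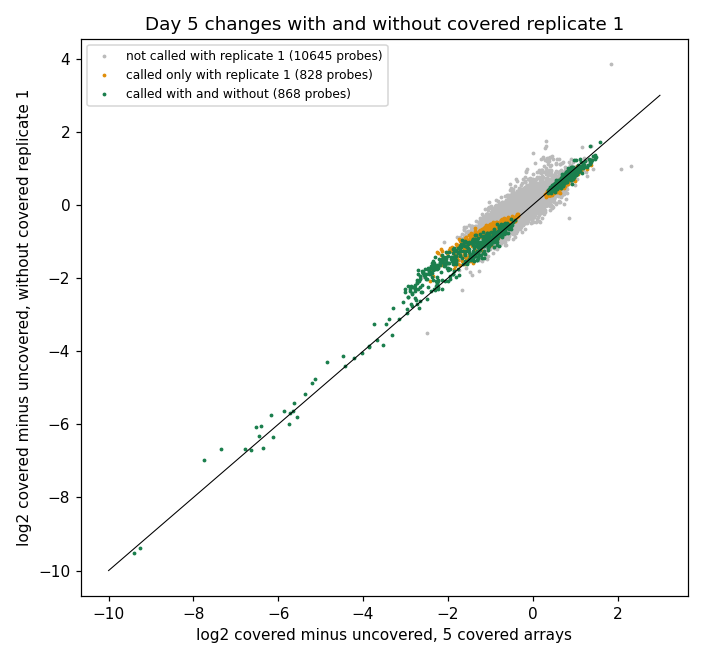
Log2 change (covered minus uncovered, day 5) of each tested probe with all 5 covered arrays (horizontal axis) and without covered replicate 1 (vertical axis), with the line of equal change. The 868 probes called both ways (green) include the 20 probes of the 10 contigs with the largest falls, while the 828 called only with replicate 1 (orange) run from -2.42 to 1.38 and hold 171 falls of at least 2-fold.

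The 2 probes of a contig mostly gave the same answer. Both probes were tested in 4228 contigs, and their log2 changes had the same sign in 3505 of them (82.9%), correlated across contigs with r = 0.87 and lay a median of 0.14 apart, with 90% of contigs within 0.44. Only 1 of these pairs shared 10 or more bases end to end, so nearly all were separate sequences, though both were read on the same arrays. Among the 2897 contigs whose probes were well above background on all 11 arrays the figures were 83.2%, r = 0.86 and 0.11. Both probes were called higher in 222 contigs (5.25%) and both lower in 117 (2.77%). Of the higher probes in these contigs 58.3% had a partner that was also called higher, and of the lower probes 59.2% had a partner called lower, beside 9.0% and 4.67% of all probes in them. Where only 1 probe of a contig was called (474 contigs), the other went the same way in 448. Opposite calls were made in 2 contigs. Without covered replicate 1 the same sign was found in 84.8%, r was 0.89, both probes were higher in 110 contigs (2.60%) and both lower in 75 (1.77%). All but 9 and 6 of these were also called with all arrays.

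**Figure D2:**
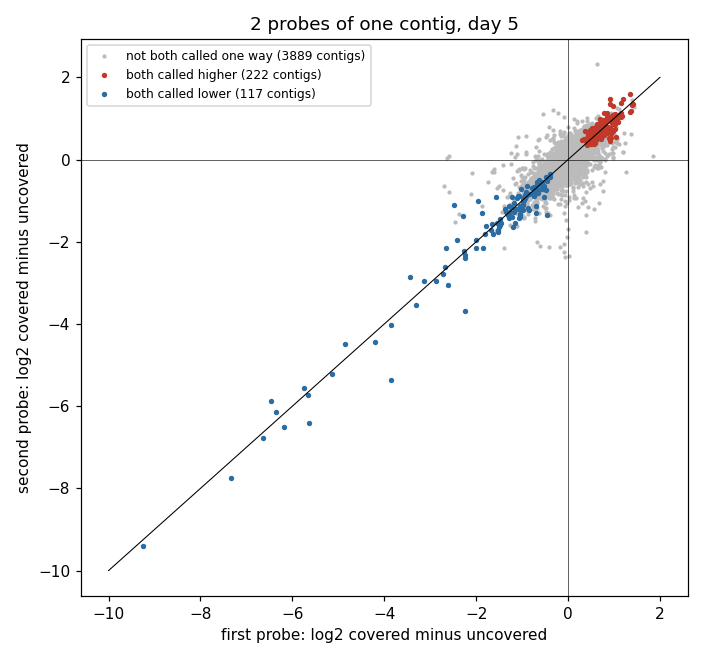
Log2 change under cover at day 5 of the first (horizontal axis) and second (vertical axis) probe of each of 4228 contigs, with the line of equality. The 117 contigs with both probes lower (blue) run along the line down to about the -9.26 and -9.40 of the furthest contig, and the 222 with both higher (red) lie within 2 log2 units of 0.

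Contigs with the largest falls. The 10 contigs with the largest fitted mean fall among those called with and without replicate 1 fell by 5.17 to 9.33 on the log2 scale, and by 4.82 to 9.45 without that array. For 14 of their 20 probes some or all covered arrays were not well above background, so these sizes are approximate and the order among the contigs is not established. With such arrays held at their lowest signal well above background, the contig means fell by at least 4.17 to 8.88. The groups did not overlap for any of their 20 probes, while 5.76% of all tested probes were lower under cover without overlap. The contigs were picked by fall and call on these same arrays, so the separation describes them and adds no support. On slides 1, 3 and 9, each holding 1 covered and 1 uncovered day 5 array and none holding covered replicate 1, the within-slide differences ran from -9.40 to -2.95; their sign follows from the groups not overlapping. The 2 probes of each contig differed by 0.07 to 0.76 in their change.

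UF_Ocu_AF_109724 lay between 2.42 and 3.55 (median 2.61) on the 6 uncovered arrays. On covered arrays 1 to 5 it lay at -6.18, -6.42, -5.99, -8.05 and -6.74, and 1 of these was well above background. Every covered array was thus far below every uncovered one. The fitted change was -9.40 (SE 0.54, limma adjusted p = 1.84e-12), and the fall was 8.95 with dim covered arrays held at their lowest signal well above background. Its partner UF_Ocu_AF_109723 changed by -9.26 (SE 0.54, limma adjusted p = 1.84e-12). On the 3 slides holding both groups UF_Ocu_AF_109724 differed by -8.49, -9.40 and -8.84.

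UF_Ocu_AF_101829 lay between -0.02 and 1.76 (median 1.06) in uncovered wounds. In covered wounds it lay at -9.83, -6.57, -6.81, -6.13 and -4.59, with the lowest value on replicate 1 and 1 of 5 arrays well above background. The fitted change was -7.74 (SE 0.79, limma adjusted p = 8.16e-08) and -6.98 without that array, and the fall was 7.19 with dim arrays held in the same way. Its partner UF_Ocu_AF_101828, at -7.35 (SE 0.68, limma adjusted p = 1.28e-08), was well above background on all 11 arrays, so its fall of 163-fold was measured on both sides.

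UF_Ocu_AF_110525 lay between -1.15 and -0.60 (median -0.97) on uncovered arrays. On covered arrays it lay at -7.91, -7.86, -7.65, -7.51 and -5.91, of which replicate 5 was the highest and 1 was well above background. The fitted change was -6.46 (SE 0.49, limma adjusted p = 2.28e-10), or a fall of 5.51 with dim arrays held, and that of its partner UF_Ocu_AF_110526 was -5.86 (SE 0.46, limma adjusted p = 3.67e-10).

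UF_Ocu_AF_101793 was tight in uncovered wounds, between 0.27 and 0.63 (median 0.51). Covered arrays gave -7.38, -5.77, -6.07, -5.59 and -4.78, with 3 of 5 well above background, for a change of -6.40 (SE 0.47, limma adjusted p = 1.04e-10). Its partner UF_Ocu_AF_101792 lay between 2.96 and 3.42 uncovered and at -3.42, -2.10, -3.22, -2.02 and -1.75 covered. It changed by -5.64 (SE 0.38, limma adjusted p = 3.04e-11), a fall of 49.8-fold measured on all 11 arrays. The gap of 0.76 between these partners was the widest of the 10 contigs.

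UF_Ocu_AF_107344 lay between 0.95 and 1.71 (median 1.21) uncovered and at -4.62, -3.41, -4.37, -5.03 and -5.09 covered. It was well above background everywhere and fell 53.0-fold (log2 change -5.73, SE 0.40, limma adjusted p = 4.27e-11). Its partner UF_Ocu_AF_107343 fell 50.3-fold. Here covered replicate 1 lay inside the range of the other 4 covered arrays, for both probes.

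UF_Ocu_AF_112456 lay between 3.96 and 5.00 (median 4.70) on uncovered arrays. On covered arrays it lay at -2.02, -0.68, -1.31, -0.60 and 1.48, a wide range with replicate 5 at the top. It fell by 5.21 (SE 0.47, limma adjusted p = 6.82e-09), or 37.0-fold. UF_Ocu_AF_112062 lay between 2.38 and 3.03 uncovered and at -3.48, -1.92, -2.90, -2.81 and -2.39 covered. It fell 41.3-fold (SE 0.39 on the log2 scale, limma adjusted p = 1.01e-10). Its partner UF_Ocu_AF_112061, which has no value on covered replicate 1, fell by 3.85, so the mean of this contig was smaller than those of the 10 contigs.

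Some transcripts were not well above background on any covered array. UF_Ocu_AF_104471 lay between -3.36 and -0.83 on uncovered arrays, all 6 well above background, and was higher there by at least 29.2-fold, when each covered array was set to its lowest signal well above background or the probe's own, whichever was higher. UF_Ocu_AF_106575 and UF_Ocu_AF_106574, partners on a contig, were higher in uncovered wounds by at least 19.1-fold and 17.0-fold in the same way, and UF_Ocu_UN_121046 by at least 4.74-fold. The limma adjusted p of these 4 was at most 3.64e-08. In all, 9 probes were well above background on 6 of 6 uncovered and 0 of 5 covered arrays, of which 8 were called, and 2 on 5 of 5 covered and 0 of 6 uncovered arrays, of which 1 was called.

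The largest falls shared a course over the other groups. The choice of contigs did not use the levels of those groups. It did use their spread, since the calls rest on the spread within all groups. A probe with a small spread is thus more readily both picked here and called at day 3. All 20 probes were higher at day 0 than in unwounded skin, by 3.89 to 9.89 on the log2 scale. Of all tested probes 49.1% were higher at day 0, and 0.446% by as much as the smallest of these. UF_Ocu_AF_101829 went from -6.37 in unwounded skin to 3.52 at day 0, and UF_Ocu_AF_109724 from -6.65 to -0.88. All 20 were also called lower under cover at day 3, as were 7.23% of tested probes, and the contig means fell by 4.17 to 9.33. The mean covered level at day 5 minus that of unwounded skin ran from -0.57 to 2.07 over the 20 probes, and 18 lay within 1 log2 unit. UF_Ocu_AF_109724 was at -6.68 covered against -6.65 unwounded and UF_Ocu_AF_107344 at -4.50 against -4.76, while both probes of 1 contig stood higher under cover, UF_Ocu_AF_102422 at -5.72 against -7.78 and UF_Ocu_AF_102421 at -6.48 against -8.18. Several of these levels are near background. No equivalence was tested, and unwounded skin had 2 arrays, 1 of them on slide 6. For none of these 20 probes did covering at day 5 differ from covering at day 3 past the threshold (lowest limma adjusted p of the difference 0.166).

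**Figure D3:**
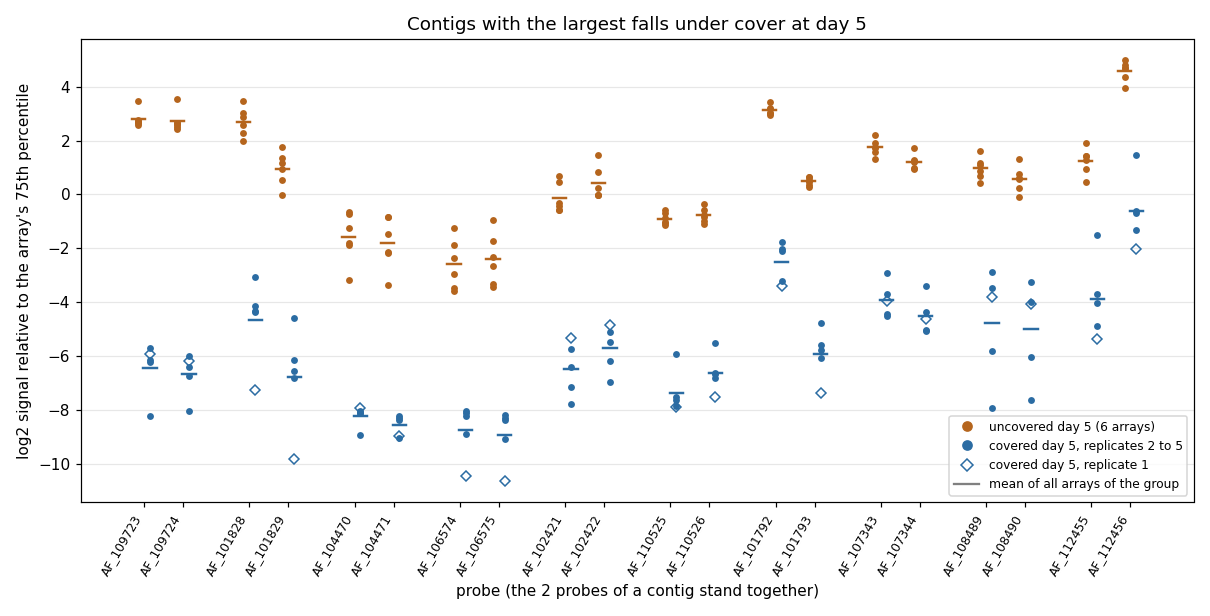
Log2 level on each day 5 array of the 20 probes of the 10 contigs with the largest falls; points are arrays, short lines group means, open diamonds covered replicate 1. Every covered point lies below every uncovered point of its probe, and replicate 1 is the lowest covered array for 10 of the 20 probes.

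Contigs with the largest rises. The 10 contigs with the largest mean rise rose by 1.09 to 1.47 on the log2 scale, and by 0.94 to 1.66 without replicate 1. Of their 20 probes 19 did not overlap between the groups, while 7.54% of all tested probes were higher under cover without overlap. These contigs too were picked on the same arrays, so the separation is a description. The within-slide differences ran from 0.05 to 1.99. Covered replicate 1 was the highest covered array for 14 of the 20 probes. Many of these signals were near background: 14 probes were not well above background on every uncovered array, and 5 on none of them, so the sizes of those rises are approximate.

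UF_Ocu_AF_101997 lay between -5.98 and -4.73 (median -5.45) on uncovered arrays and at -4.41, -3.83, -4.40, -2.90 and -3.76 on covered ones. It was well above background on 4 of 6 uncovered arrays, and rose 3.0-fold (log2 change 1.58, SE 0.29, limma adjusted p = 0.00069). Replicate 1 was here the lowest covered array, and the change without it was 1.72. Its partner UF_Ocu_AF_101996 rose by 1.35 (SE 0.31, limma adjusted p = 0.00475), and was the only one of the 20 probes with overlapping groups: covered replicate 1, at -4.49, lay below uncovered replicate 6, at -4.01.

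UF_Ocu_AF_104998 lay between -4.95 and -4.61 (median -4.88) uncovered and at -2.53, -3.94, -3.55, -3.17 and -3.72 covered. The uncovered arrays lay close together, while the covered arrays spread more widely with replicate 1 at the top. The probe was well above background on every array but 1 of the uncovered ones. The rise was 2.76-fold (log2 change 1.46, SE 0.24, limma adjusted p = 0.000174), and 1.25 on the log2 scale without replicate 1. Its partner UF_Ocu_AF_104997 rose by 0.91 (SE 0.19, limma adjusted p = 0.00192).

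UF_Ocu_AF_110715 and UF_Ocu_AF_110716 were well above background on all 11 arrays. UF_Ocu_AF_110715 lay between -3.19 and -2.94 (median -3.14) uncovered and at -1.44, -2.20, -1.93, -1.77 and -2.30 covered, a rise of 2.27-fold (SE 0.30 on the log2 scale, limma adjusted p = 0.00912). UF_Ocu_AF_110716 lay between -2.97 and -2.59 uncovered and at -1.75, -1.86, -1.65, -1.55 and -1.87 covered, a rise of 2.10-fold (SE 0.28, limma adjusted p = 0.0112). For this probe replicate 1 sat inside the covered range.

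UF_Ocu_AF_111928 lay between -6.38 and -5.18 (median -5.65) uncovered and at -3.69, -4.95, -4.47, -4.04 and -4.66 covered. It was well above background on 3 of 6 uncovered arrays and rose by 1.39 (SE 0.27, limma adjusted p = 0.00114). UF_Ocu_AF_110026 lay between -7.60 and -6.71 (median -7.02) uncovered, where no array was well above background, and at -5.27, -6.06, -5.92, -5.39 and -5.61 covered, with 3 of 5 well above background. It was higher by at least 1.28-fold when uncovered arrays were held at their lowest signal well above background (limma adjusted p = 0.000238). For its partner UF_Ocu_AF_110027 this bound fell under 1, so no fold is given.

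The largest rises measured on both sides were of similar size. UF_Ocu_AF_106123 rose 2.28-fold (SE 0.20 on the log2 scale, limma adjusted p = 0.000219), UF_Ocu_UN_119880 2.26-fold (limma adjusted p = 0.00412) and UF_Ocu_AF_111121 2.11-fold (limma adjusted p = 0.00247). UF_Ocu_AF_109208 lay between 1.63 and 1.92 uncovered and at 4.03, 2.44, 2.57, 3.04 and 2.51 covered. It rose 2.22-fold (limma adjusted p = 0.00785) and by 0.87 on the log2 scale without replicate 1, its highest array.

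The rises had no common course from unwounded skin to day 0, but shared their direction under cover at day 3. Of their 20 probes 8 were higher and the rest lower at day 0 than in unwounded skin, with differences from -4.32 to 2.84. At day 3 all 20 had a positive change under cover, from 0.03 to 1.80 on the log2 scale. Of these, 9 were called higher, beside 9.08% of all tested probes. Among the probes of all 222 contigs called higher at day 5, 95.5% had this sign at day 3. The share of all tested probes with this sign is not given here. The contigs with the largest rises were poor in G and C, with a mean GC content from 35% to 40%. Tested probes with a GC content below 45% had a median change of 0.13 at day 3, and 15.3% of them were called higher. How much base composition adds to the shared direction was not tested. UF_Ocu_AF_101997 was at -3.75 in unwounded skin and -8.06 at day 0, and rose under cover by 1.80 at day 3 (limma adjusted p = 0.000108). UF_Ocu_AF_110026 changed by 0.26 at day 3 (limma adjusted p = 0.548), and UF_Ocu_AF_106123 by 0.22 (limma adjusted p = 0.532). The difference between the days did not pass the threshold for any of the 20 (lowest limma adjusted p 0.144).

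**Figure D4:**
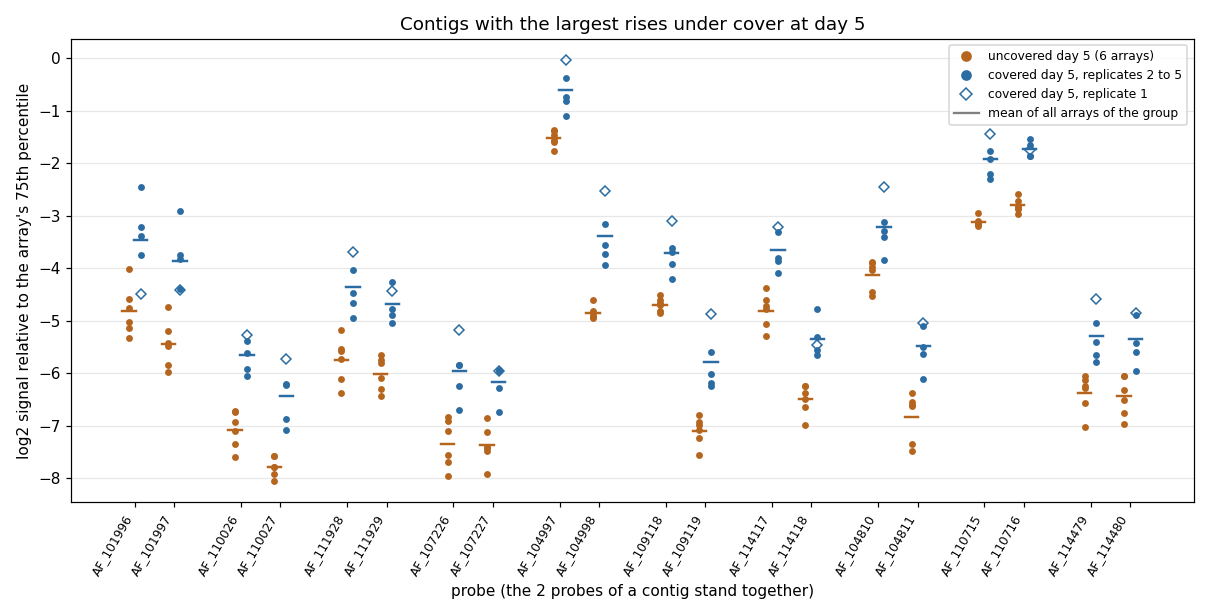
Log2 level on each day 5 array of the 20 probes of the 10 contigs with the largest rises; points are arrays, short lines group means, open diamonds covered replicate 1. Replicate 1 is the highest covered array for 14 of the 20 probes, and UF_Ocu_AF_101996 is the probe whose groups overlap.

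Contigs whose probes disagreed. Among contigs measured on all 11 arrays the widest gap was that of UF_Ocu_AF_100415 and UF_Ocu_AF_100414. UF_Ocu_AF_100415 lay between -1.49 and -0.55 (median -1.22) uncovered and at -4.66, -3.34, -3.43, -3.17 and -2.89 covered, a fall of 5.09-fold (log2 change -2.35, SE 0.28, limma adjusted p = 1.45e-06). UF_Ocu_AF_100414 lay between -4.39 and -3.64 uncovered and at -4.06, -4.16, -4.28, -3.47 and -3.44 covered, a change of 0.01 (SE 0.52, limma adjusted p = 0.993). The 2 probes have the same GC content, 45.0%, and the difference is not carried by replicate 1: the changes without it were -2.06 and 0.05.

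In the 3 other contigs both probes had their lowest covered value on replicate 1, as had UF_Ocu_AF_100415 in the first. UF_Ocu_AF_111927 lay between -2.19 and -0.80 uncovered and at -6.01, -3.76, -3.38, -2.66 and -2.98 covered (log2 change -2.13, SE 0.43, limma adjusted p = 0.0015, and -1.57 without replicate 1). Its partner UF_Ocu_AF_111926 changed by -0.17 (limma adjusted p = 0.818). UF_Ocu_AF_106340 lay at -7.98 on covered replicate 1 and between -4.41 and -3.79 on the other covered arrays, and its change of -2.59 (SE 0.56, limma adjusted p = 0.00302) became -1.82 without that array. Its partner UF_Ocu_AF_106341 changed by -0.80 (limma adjusted p = 0.272). UF_Ocu_AF_108755 changed by -1.21 (SE 0.31, limma adjusted p = 0.0112) and lost its call without replicate 1 (-0.83, limma adjusted p = 0.0534), while UF_Ocu_AF_108754 stood at 0.56 (limma adjusted p = 0.33). The number of bases in G and C runs did not separate these pairs one way: the probe with the larger fall had 8 against 13 in its partner for UF_Ocu_AF_100415, 32 against 22 for UF_Ocu_AF_111927, 10 against 10 for UF_Ocu_AF_106340 and 27 against 6 for UF_Ocu_AF_108755.

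The 2 contigs with opposite calls were named after their values were seen. UF_Ocu_AF_110295 fell by 0.92 (limma adjusted p = 0.00959) and its partner UF_Ocu_AF_110296 rose by 0.57 (limma adjusted p = 0.00474), and both held without replicate 1 (limma adjusted p = 0.00134 and 0.00488). UF_Ocu_AF_107341 fell by 0.64 (limma adjusted p = 0.0116) and UF_Ocu_AF_107342 rose by 0.47 (limma adjusted p = 0.0332), of which the rise did not pass without replicate 1 (limma adjusted p = 0.0902).

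Probe classes. Probe names carry 1 of 3 marks, AF, AM or UN, whose meaning is not given in the sources used here. Of 9617 tested AF probes 8.14% were higher and 5.22% lower under cover at day 5. Of 2569 UN probes 3.62% were higher and 11.5% lower, and of 155 AM probes 8 were higher and 14 lower. Without replicate 1 the AF shares were 3.96% and 3.30% and the UN shares 1.67% and 6.31%, so UN probes fell more often than they rose both ways. In the whole comparison, 7.16% of probes were higher and 6.58% lower. No test was made of these shares, since probes are not replicates.

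The falls of at least 2-fold are described separately for the 2 larger classes. Of the 290 AF probes that fell at least 2-fold, 116 were at least 2-fold higher at day 0 than in unwounded skin and at least 2-fold lower under cover at day 3, and 113 were neither. Of the 228 UN probes 18 were both and 188 were neither. The shares of all tested AF and UN probes meeting these conditions are not given here. The counts therefore describe only these falls and cannot be read against their class. The median level of the 228 UN probes was -6.57 in unwounded skin, -6.09 at day 0, -5.78 and -6.29 in uncovered and covered wounds at day 3, and -3.92 and -5.81 at day 5. The day 5 levels are those by which the probes were chosen, and are given as a description. The median per uncovered day 5 array ran from -4.44 to -3.22. On covered day 5 arrays 2 to 5 the median lay between -5.27 and -5.10, and on replicate 1 at -7.95. The 290 AF probes had medians of -5.84, -4.74, -4.25, -5.74, -3.07 and -5.19 in the same 6 groups. The unwounded arrays differed: UN medians were -5.51 on replicate 1 and -7.51 on replicate 2 (slide 6), and AF medians -5.11 and -6.37. Day 0 arrays ran from -6.24 to -5.67 for UN, all below unwounded replicate 1. For AF they ran from -4.99 to -4.53, all above it. The counts of probes higher at day 0 rest on the mean of these 2 unwounded arrays. Without replicate 1, 140 of the 228 UN and 212 of the 290 AF probes were still called lower.

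Base composition. By their medians, probes called higher under cover were poor in G and C and probes called lower were rich in them. The largest falls did not follow this. The mean GC content of the 10 contigs with the largest falls ran from 35% to 49.2%, and 9 of their 20 probes stood at 35%. Of the 812 lower calls, 183 had a GC content below 45%. The median GC content was 35% for the higher calls, 51.7% for the lower calls and 45.0% for all tested probes. At least 1 run of 4 or more letters that are each G or C, a property that is the same on both strands, was found in 33.7% of higher, 84.1% of lower and 62.8% of all tested probes. Of 3046 tested probes with a GC content of 55% or more, 0 were called higher by limma and 373 lower (12.2%). At 45% to below 55% there were 3669 probes, 3.73% higher and 6.98% lower. Below 45% there were 5626 probes, 13.3% higher and 3.25% lower.

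The same order was seen without replicate 1, at a smaller size. In the GC-rich band 0 probes were higher and 181 lower (5.94%), and below 45% 6.27% were higher and 2.60% lower. The median log2 change from the lowest to the highest band was 0.19, -0.08 and -0.39, and 0.17, -0.01 and -0.17 without replicate 1. In the highest band the medians within slides 1, 3 and 9 were -0.40, -0.25 and -0.14, and below 45% they were 0.27, 0.22 and 0.09. At day 3 the medians of the 3 bands were 0.13, 0.01 and -0.10. There the share of higher calls fell over the bands, from 15.3% to 5.86% and 1.48%, while the share of lower calls was 7.32%, 7.66% and 6.53% and did not rise. This trend was seen in the data before it was measured.

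Each array can be given a single value for it: the median deviation of its GC-rich probes (55% or more) from the mean of the 11 arrays, minus that of its GC-poor probes (below 45%). It was 0.16, 0.11, 0.28, 0.20, 0.50 and 0.32 on uncovered arrays 1 to 6, and -1.22, 0.03, -0.20, -0.07 and -0.18 on covered arrays 1 to 5. The groups did not overlap, with or without replicate 1, so both p-values below are the smallest that their numbers of arrays can give. Because the trend was first seen on these same arrays, the p-values describe the separation and are no independent support for it. The means were 0.26 ± 0.14 (SD, n = 6) and -0.33 ± 0.51 (SD, n = 5; exact permutation test, two-sided, p = 0.0043, the smallest that 5 against 6 arrays can give). Without replicate 1 the covered mean was -0.10 ± 0.11 (SD, n = 4; exact permutation test, two-sided, p = 0.00952). With a smooth trend on GC content taken out of each array, an alternative chosen after seeing the data, 1160 probes were called, 631 higher and 529 lower, and 672 without replicate 1. Of the 58 probes picked by rule for description, 57 kept their side of the threshold under it, and UF_Ocu_AF_108754 passed (1.02, limma adjusted p = 0.0419). Whether transcript composition or the measurement moves this trend was not tested.

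**Figure D5:**
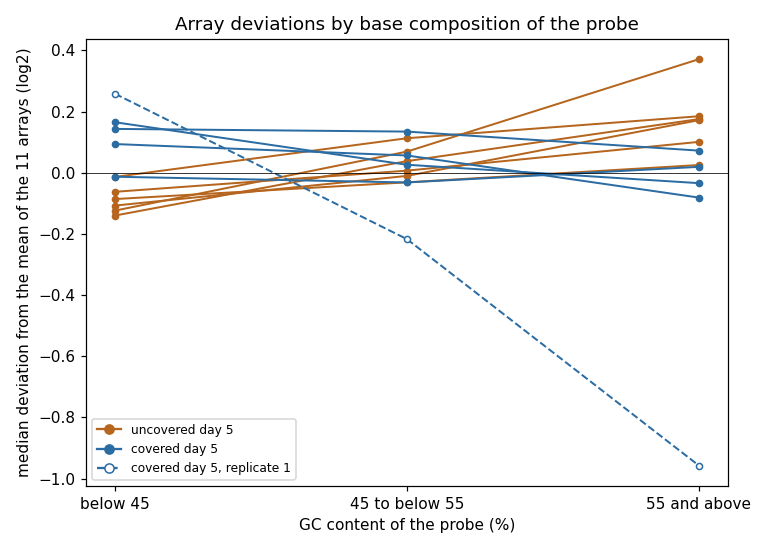
Median log2 deviation of each day 5 array from the mean of the 11 arrays, for probes in 3 bands of GC content (percent of the 60 bases). Uncovered arrays (brown) lie higher in the GC-rich than in the GC-poor band, and covered replicate 1 (dashed) ends at -0.96 while the other covered arrays stay between -0.08 and 0.07 there.

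Day 5 beside day 3. The 2 comparisons share no array, but both come from the same fit with a single estimate of spread per probe. A probe with a small spread is thus more readily called on both days. How much this adds to the shared calls was not tested. At day 3, 16.3% of probes were called, 9.08% higher and 7.23% lower under cover. On the level of contigs with both probes called one way, 117 were lower at day 5 (2.77%) and 257 at day 3 (6.08%), and 85 were lower on both days, 72.6% of the first list and 33.1% of the second. Higher contigs numbered 222 (5.25%) and 307 (7.26%), and 78 were shared, 35.1% and 25.4%. No contig went opposite ways. The probes of the 117 lower contigs had a median change of -1.23 at day 5 and -1.21 at day 3, and those of the 222 higher contigs 0.67 and 0.44. A contig called on 1 day only is not shown to differ between the days.

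The difference itself was called for 15 probes (0.122%), 13 with a more negative (0.105%) and 2 with a more positive (0.0162%) change at day 5. UF_Ocu_AF_103039 lay between -1.45 and -0.24 (median -0.64) on uncovered day 5 arrays and at -2.23, -1.62, -1.91, -1.68 and -1.92 on covered ones, for a fall of 1.16 (SE 0.18, limma adjusted p = 7.29e-05). At day 3 its change was 0.42 (limma adjusted p = 0.108), and the difference between the days was -1.58 (SE 0.25, limma adjusted p = 0.00628). UF_Ocu_AF_113170, singled out after its values were seen, had a mean of -2.33 uncovered and -4.35 covered at day 5. It fell by 2.02 (SE 0.25, limma adjusted p = 3.26e-06) and changed by -0.13 at day 3 (limma adjusted p = 0.818), with a difference of -1.89 (SE 0.36, limma adjusted p = 0.0259). Its mean was -5.10 in uncovered wounds at day 3 and -5.19 at day 0. Its partner UF_Ocu_AF_113169 was not called, with a change of -0.68 (limma adjusted p = 0.28) at day 5 and 0.33 (limma adjusted p = 0.702) at day 3.

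The other probes picked by the same rule turned on day 3. UF_Ocu_AF_101379 had a fitted fall under cover of 2.21 at day 3. Only 2 of 6 uncovered arrays and 0 of 5 under cover detected it well above background there, so its size rests on signals near background. It was well above background on 1 of the 11 day 5 arrays, where its change was -0.14 (limma adjusted p = 0.692; difference between the days 2.07, SE 0.30, limma adjusted p = 0.00322). UF_Ocu_AF_111876 and its partner UF_Ocu_AF_111877 rose under cover by 2.81 and 2.95 at day 3, where 5 of 5 covered and 0 of 6 uncovered arrays were well above background. At day 5 they were well above background on 1 and 3 of the 11 arrays and changed by -0.21 and -0.27 (limma adjusted p = 0.732 and 0.674). Of the 15 probes 8 were called lower at day 5 and not called at day 3, and 6 of the 15 carry the UN mark. The count of 15 is small and moved with the processing, from 5 to 41 with 1 array left out and from 8 to 295 over the other settings.

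Other pairs of probes agreed less well than the probes of a contig. Some names occur once with the ending 0 and once with 0rc, which the sources used here do not explain. Of 3324 such pairs 344 had both probes tested, with the same sign in 71.5% and r = 0.25 between their changes, and 8 had both called lower. Some clones carry sequences marked x1 and y1. Of 562 clones with a tested probe of each, 61.2% had the same sign, with r = 0.22 across clones. Among the 141 of these in which both probes carry the AF mark, r was 0.42. The reason for the weaker agreement was not tested.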

How the data were processed

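Epidermal RNA was measured on 30 1-colour Agilent arrays. Per the file headers, the deposited scanner files give each spot's intensity, which the scanner's program had background-subtracted and detrended but not normalized between arrays, with flags of 0 or 1 (other columns) for signal above background, saturation and outliers. A series table holds the authors' processed intensity. The submitters' processing notes name limma, with no version. Here control and outlier spots were left out, log2 signals of a probe's spots were averaged, and each array's 75th percentile of 7446 probes, those detected above background throughout, was subtracted. The 12341 probes that 2 or more arrays detected well above background were fitted over 30 arrays and 6 groups with limma 3.58.1 in R 4.3.3 (lmFit, eBayes, 2-sided, Benjamini-Hochberg adjustment, threshold 0.05). Missing spots (241 probes on covered replicate 1, 0 to 72 elsewhere at day 5) were left missing. Single values per array were compared with exact permutation tests. The fit was tested on simulated data. The number of arrays limits the precision.

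Probes were picked by rule: the 10 contigs with the largest mean fall and rise among those with every tested probe called one way with and without covered replicate 1; the 6 largest falls and rises well above background on all 11 arrays, called both ways and with groups that do not overlap; the 4 widest gaps within a contig; the 4 largest differences in detection; and the 4 smallest p for day 5 minus day 3. These made 58 probes. A fold against a group at background compares with each array's lowest signal well above background. Alternatives were other scalings, background corrections, filters, blocks (slide, scan day, replicate number), array weights and left-out arrays. The comparison, the rules and the GC bands were chosen with earlier results of these data known. Gene and marker lists could not be used, since no table pairs these probes with genes.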

Additional observations from a re-analysis of the deposited data

Results flagged for a closer look

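The groups of values checked here included picked probes and their contig partners, read on the same arrays, so they were not independent. Arrays stood apart within their day 5 group for 13 of the 122 groups of values. In independent groups chance alone would mark about 1 in 20, so these 13 are not shown to be an excess. Covered replicate 1 was the array concerned in 5 of them: it had 311 saturated spots, a GC-rich minus GC-poor value of -1.22, and the lowest covered level of UF_Ocu_AF_106340 (-7.98), UF_Ocu_AF_106341 (-6.80) and UF_Ocu_AF_108755 (-4.31). Uncovered replicate 4 was the highest uncovered array for both probes of the contig with the deepest fall, UF_Ocu_AF_109723 (3.45) and UF_Ocu_AF_109724 (3.55), and for UF_Ocu_AF_110715 (-2.94) and UF_Ocu_UN_119880 (-1.65). Covered replicate 4 was the lowest for UF_Ocu_AF_109723 (-8.24). Covered replicate 5 was the lowest for UF_Ocu_AF_104470 (-8.93) and the highest for UF_Ocu_AF_110525 (-5.91). Uncovered replicate 5 was the highest for UF_Ocu_AF_100415 (-0.55).

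The response to covering differed between day 5 and day 3 by the test of the difference for UF_Ocu_AF_101379 (2.07), UF_Ocu_AF_103039 (-1.58), UF_Ocu_AF_111876 (-3.02) and UF_Ocu_AF_111877 (-3.21), in log2 units of day 5 minus day 3. These probes were picked for the smallest p of this same test, so their passing adds nothing to the count given above. UF_Ocu_AF_101379 was near background on both days.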

How the results depend on the processing

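No called change of a probe picked by rule turned its direction under any alternative run. Values of 5 probes that were not called changed sign in 20 instances, none of them called (lowest limma adjusted p 0.331), among them UF_Ocu_AF_111926 without covered replicate 1 (-0.17 to 0.16). Of the picked probes' 1449 values under alternatives, 1425 kept their side of the threshold, 1 newly passed and 23 no longer did. Of these 23, 21 were under the replicate block, and the others were UF_Ocu_AF_114480 with the authors' values (0.48, limma adjusted p = 0.0686) and UF_Ocu_AF_108755 without covered replicate 1.

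Counts moved more, and the cause was not tested except where fewer samples or probes entered. Against 1696 called probes (884 higher, 812 lower, 527 and 79 at least 2-fold lower and higher, 339 contigs, 15 for the difference between the days, 914 without covered replicate 1), the counts more than 1.5 times away were these. Scaling over all probes gave 163 at least 2-fold higher and 25 for the days, and quantile normalization 1593 higher, 370 at least 2-fold higher, 551 contigs and 100. Normexp gave 281 and 18 at least 2-fold lower and higher and 169 for the days, and the authors' values 239, 13 and 197. No filter gave 435 higher, 184 contigs and 8 for the days, and a filter at 5 arrays 8. Slide as a fixed block gave 36 for the days and 1455 without replicate 1, slide as a random block 1360 higher, 574 contigs, 109 and 1471, and scan day 544 higher, 51 at least 2-fold higher and 60. Array weights gave 2631, 1611 higher, 655 contigs, 295 and 2357. Fitting only the day 5 arrays gave 2146 without replicate 1, against 1878 with it. Leaving out slide 6 gave 1066, 485 higher, 50 at least 2-fold higher, 208 contigs and 50 for the days. Removing the GC trend gave 529 lower, 202 contigs and 31.

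Whether the replicate numbers pair the samples cannot be told from the arrays. Same-numbered covered and uncovered arrays had deviations correlated with r from -0.35 to 0.03 over 5 pairs. All of these pairs lay on different slides, where pairs of unlike number ran from -0.47 to 0.53, so a shared animal could go unseen. The 3 pairs on a shared slide had r of 0.19, 0.33 and 0.57, and slide as a block is given above. The number was fitted as a replicate block all the same, on the day 5 arrays alone. This left 112 calls, 15 higher and 97 lower, with 93 and 12 at least 2-fold lower and higher. It gave 31 contigs, and 100 calls without covered replicate 1. The day 5 arrays alone gave 1878 calls without the block. Before adjustment, the limma p was under 0.05 for 3035 probes with the block, 4152 without it and 3783 in the main fit. The block takes up degrees of freedom, and how much this adds to the loss of calls was not tested.

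With 1 day 5 array left out the calls ran from 914 to 2189, 428 to 1180 higher and 486 to 1009 lower, with 334 to 677 and 47 to 173 at least 2-fold lower and higher, 185 to 443 contigs and a detection difference of 0.747 to 2.83 percentage points. The lowest counts came without covered replicate 1, and leaving out covered replicate 4 (1074) or uncovered replicate 5 (1079) also moved the calls by over 1.5 times. The difference between the days ran from 5 to 41 with any array of either day left out. The GC difference ran from -0.68 to -0.36. Contig partners shared their sign in 84.8% without covered replicate 1. Signal near background limits 14 of the 20 falling and 14 of the 20 rising contig probes.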
